A study of Homo sapiens with 2 samples.

Results

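The sites described here were the strong parental ZMYND8 sites that had no counterpart in the list from ZMYND8 knockout cells. They were chosen by measured values: a parental summit with a score of at least 13 and no knockout summit within 1000 bp on the same chromosome. The score is the authors' −log10 of a p or q value for each summit, and the sources used here do not state which. This choice gave 1042 sites (exact Poisson interval 979.7 to 1107.2) of the 1231 strong parental summits and of the 45924 parental summits in all. Among all parental summits, 45368 of 45924 (98.8%) had no knockout summit within 1000 bp, and because the rule used that contrast nothing is read from it. For brevity these 1042 sites are called strong parental-only sites, and the other 189 strong parental summits are called strong shared sites.

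The study profiled ZMYND8 by chromatin immunoprecipitation and sequencing in MDA-MB-231, an established line from a triple-negative breast cancer, grown as mammospheres in MammoCult medium. The 2 groups were spheres carrying a ZMYND8 knockout and parental spheres, which the labels call wildtype, with 1 library each and the same Bethyl antibody against ZMYND8. The names of both lists mark them as replicate 2, and no other replicate was analysed here. No other allele, agent or time is given in the labels, and whether the knockout is 1 clone is not stated. The knockout list held 385 summits and the parental list held 45924, both on hg19. No source used here gives the read depth or the control library, so the part of depth in the absence of a knockout summit was not tested. With 1 library per group there was no test between genotypes, and every interval below is a 95% interval for counting error only. A summit list gives no expression, so neither the loss of ZMYND8 nor the identity of the cells could be checked in it.

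ZMYND8 is a multidomain reader of histone tails, which recognises acetylated and methylated lysines on nearby nucleosomes. It works with histone deacetylase and demethylase complexes, and with the zinc finger proteins ZNF592, ZNF687 and ZNF532, at promoters and enhancers. In breast cancer cells it is known both for restraining enhancers and for helping transcription of stress and hypoxia genes. Summits in such a list mark the base with the highest pileup within a called peak, and several summits can lie in 1 stretch of enriched chromatin.

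No genome of the files' build was used, so the bases under the sites are not printed. The promoters of 4 of the 8 sampled genes with a strong parental-only site near the start are shown instead. HSPA4L, RPP38 and FKBP5 had the sites nearest to a start, and ZNF532 encodes a partner of ZMYND8; the choice was made after their values were seen. Each runs 5′ to 3′ from 250 bases before to 50 bases after the gene start, as given by RefSeq for GRCh38.p14. Capitals mark a GC box (GGGCGG or its complement) or a CCAAT box (CCAAT or its complement). Coordinates in these lines belong to GRCh38.p14, and all others in the text belong to hg19.
HSPA4L, GRCh38.p14 chr4:127781546-127781845, plus strand: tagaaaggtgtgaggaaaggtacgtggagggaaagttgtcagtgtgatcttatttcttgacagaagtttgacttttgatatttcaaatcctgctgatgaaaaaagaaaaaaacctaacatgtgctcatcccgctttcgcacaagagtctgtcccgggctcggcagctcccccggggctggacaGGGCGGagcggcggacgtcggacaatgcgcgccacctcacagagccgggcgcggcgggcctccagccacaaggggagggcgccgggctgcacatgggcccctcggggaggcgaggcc
RPP38, GRCh38.p14 chr10:15097105-15097404, plus strand: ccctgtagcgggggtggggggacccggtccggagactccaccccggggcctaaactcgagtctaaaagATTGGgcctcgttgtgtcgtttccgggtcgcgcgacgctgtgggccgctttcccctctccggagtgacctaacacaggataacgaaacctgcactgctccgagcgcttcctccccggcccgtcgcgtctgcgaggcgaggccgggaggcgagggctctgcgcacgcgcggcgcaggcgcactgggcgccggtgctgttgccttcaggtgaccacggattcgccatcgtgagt
FKBP5, GRCh38.p14 chr6:35728534-35728833, minus strand: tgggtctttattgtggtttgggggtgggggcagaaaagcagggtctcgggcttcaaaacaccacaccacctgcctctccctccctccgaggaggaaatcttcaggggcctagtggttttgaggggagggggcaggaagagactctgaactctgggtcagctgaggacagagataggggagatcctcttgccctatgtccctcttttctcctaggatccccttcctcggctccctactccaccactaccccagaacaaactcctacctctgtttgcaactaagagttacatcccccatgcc
ZNF532, GRCh38.p14 chr18:58862674-58862973, plus strand: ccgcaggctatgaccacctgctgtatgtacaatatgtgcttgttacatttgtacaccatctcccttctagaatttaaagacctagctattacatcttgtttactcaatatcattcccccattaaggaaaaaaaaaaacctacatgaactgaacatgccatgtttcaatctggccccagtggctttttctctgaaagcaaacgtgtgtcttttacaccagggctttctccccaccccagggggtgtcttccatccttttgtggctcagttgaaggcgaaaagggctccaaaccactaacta

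The promoters differed in base composition. The HSPA4L window held 21 CpG with 59.0% G or C, and the RPP38 window held 36 CpG with 68.0% G or C. FKBP5 and ZNF532 had 3 CpG each, with 55.67% and 43.67% G or C. Of the others, CTBP2 had 27 CpG, SCRN1 33 and CTXN1 36, so that 5 of the 7 genes matched to RefSeq had 20 or more. Over 35116 RefSeq promoters of the same length the median was 14 CpG and 58.67% G or C, and 41.16% had 20 or more CpG. These promoters were not matched to the 7 genes, which are all protein-coding and were chosen for a summit near the start. The shares over all promoters are therefore not a like comparison. Motifs were searched on both strands. GGGCGG was found in the HSPA4L window and in 44.95% of all promoters, and CCAAT was found in the RPP38 window and in 34.61%. Of the other elements searched, CCGGAA, an ETS element, was found for RPP38 (17.25% of all promoters). TGTGGT, a RUNX element, was found for FKBP5 (13.07% of all promoters). ZNF532 held GGAATG, a TEAD element present in 14.03% of all promoters, and ACANNNTGT, a steroid receptor element present in 5.37%. The hypoxia element ACGTG, which is also part of the E-box CACGTG, was found for HSPA4L and ZNF532 and in 21.41% of all promoters. These matches describe the printed letters and are not evidence of a bound site. The strong parental-only summits lay 42, 154, 161 and 435 bp downstream of the hg19 transcript starts of HSPA4L, RPP38, FKBP5 and ZNF532. Counted from those starts, only the HSPA4L summit fell within the length of the printed window. Starts were not compared by coordinate between builds, but the RefSeq gene and the hg19 transcript had equal spans for HSPA4L, RPP38 and ZNF532. For FKBP5 the spans were 154994 and 154999 bases.

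The scores of the strong parental-only sites lay mostly close to the minimum. Their lowest score was 13.04, the median 15.8, and the highest 81.1, with the middle range between 13.8 and 18.9. In the strong shared sites the median was 20.3 (19.1 without a run of 19 summits in 15q24.2) and the highest score 263.6. Scores took few distinct values: 163 sites (15.64%) had a score of 13.63, and the 5 commonest scores covered 464 sites (44.53%). A total of 573 sites (54.99%) scored 15 or more, 198 (19.0%) scored 20 or more, 49 (4.70%) scored 30 or more, and 7 (0.672%) scored 50 or more. These values chose the sites and are given as a description.

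Of all strong parental summits, 84.65% (Clopper-Pearson interval 82.51 to 86.62) were parental-only. Both the score and the absence of a knockout summit chose the sites, so the shares by class of score are a description. The share was 93.24% (90.68 to 95.27) for scores from 13 up to 15 and 87.01% (83.46 to 90.03) from 15 up to 20. It was 70.95% (64.31 to 76.99) from 20 up to 30 and 67.74% (54.66 to 79.06) from 30 up to 50. Of the 25 summits that scored 50 or more, 7 (28.0%, 12.07 to 49.39) were parental-only. This top class rests on few places. A run of 19 strong shared sites in 15q24.2 (chromosome 15, 75664444 to 75722619) held 12 of the 25, and without that run the share was 53.85% (7 of 13, 25.13 to 80.78). Of the 7 parental-only summits, 5 lay in 1 run in 14q11.2.

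**Figure D1:**
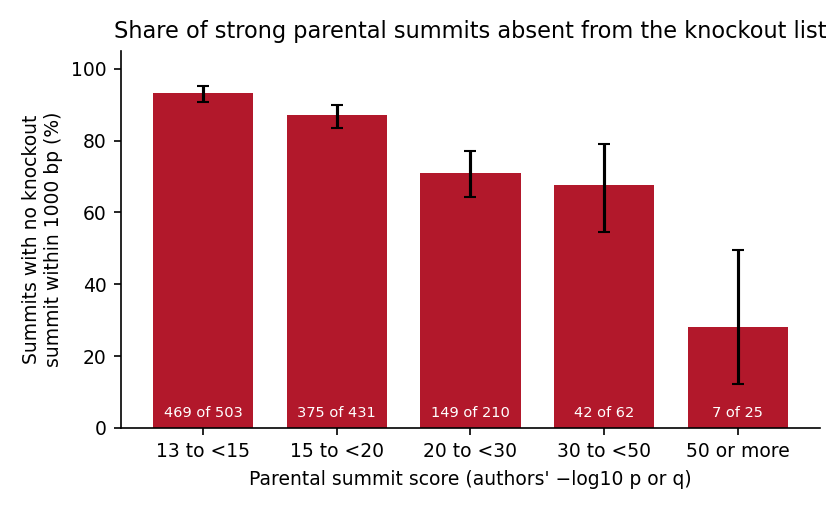
Share of strong parental summits that had no knockout summit within 1000 bp (vertical axis, %), by class of parental score (horizontal axis, −log10 p or q). Bars are shares, error bars are 95% exact binomial intervals, and the counts stand at the foot of each bar; the share is 93.24% in the lowest class and 28.0% in the highest, where 12 of the 25 summits lie in 15q24.2.

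Near the limits of the rule, the sites just inside and just outside were alike in value. Just inside by score was a site in 11q21 with 13.04, followed by 4 sites between 13.08 and 13.10, and just outside were 5 summits that all scored 12.98. By distance, the nearest sites kept were 1032 bp from a knockout summit in 19p13.11 (score 20.4), 1036 bp in 20p11.1 (13.7) and 1067 bp in 2p13.3 (49.7). The farthest strong summits left out were 960 bp away in 17q25.3 (17.8), 927 bp in 12q21.2 (17.5) and 913 bp in 3q27.2 (27.6).

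Most of the sites lay far from any knockout summit. The median distance to the nearest one was 1586 kb (middle range 360.3 to 6107 kb), and the farthest site was 59.48 Mb away. Of the sites, 30 (2.88%) had a knockout summit within 10 kb, 130 (12.48%) within 100 kb and 426 (40.88%) within 1 Mb. For the 44326 weaker parental summits that likewise lacked a knockout summit nearby, the median was 1935 kb, and the shares were 1.82%, 9.41% and 37.18%. The knockout summits nearest to those 30 sites had a median score of 4.09, between 1.90 and 8.31 in the knockout list's own scores, which cannot be set against parental scores. Of these 30 sites, 9 were on chromosome 20.

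The 3 highest strong parental-only sites, with 1 site taken per group, lay on 3 chromosomes. The first was in 14q11.2 at position 24589023, with a score of 81.1, and it lay inside a run of such sites described next. The second was in 8q24.3 at 145116028, with a score of 59.7. It had 14 other parental summits within 10 kb, the highest of which scored 10.7. The third was in 12q14.3 at 65955689, with a score of 59.1. It had 1 other parental summit within 10 kb, with a score of 6.70, and the nearest knockout summit was 10.47 Mb away. Both therefore stood above their surroundings by a wide margin in score, although the 8q24.3 site lay among many weak summits and the 12q14.3 site stood almost alone.

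Sites with scores between 40 and 50 were spread over 6 further bands outside the runs. In 2p13.3, position 70314071 scored 49.7 and lay 1067 bp from a knockout summit that scored 5.37 in its own list. In 6p24.3, position 10405010 scored 49.2, and in 1q24.2, position 168195103 scored 49.1. In 6p22.3, position 18242513 scored 45.3, with the nearest knockout summit 5.75 Mb away. Position 36242612 in 5p13.2 and position 134498367 in 10q26.3 both scored 40.2. The 2p13.3 site was the exception by distance, since the other sites named in this paragraph were at least 678.4 kb from a knockout summit. The highest site was lower on some chromosomes, such as 30.1 on chromosome 18 (18q12.2) and 29.1 on chromosome 11 (11q24.1). It was lowest on chromosome 13 (22.4, 13q33.2), followed by chromosomes 22 (24.9), X (26.1) and 15 (27.6).

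Most strong parental-only sites had no other such site within 20 kb, although 90.02% had another parental summit within that distance. With gaps of up to 20 kb allowed, they formed 915 groups, of which 832 were single sites (79.85% of the sites). The other 83 groups held 210 sites, 21 groups held 3 or more, and 4 runs held 5 or more. The median gap between neighbouring sites on a chromosome was 800.7 kb. In 27 gaps of up to 1 kb the median was 638 bp, and the smallest gap was 286 bp. Of the 21 larger groups, 18 had no knockout summit in their span, 3 consisted of strong parental-only sites with no other parental summit between them, and 6 (28 sites) were on chromosome 20.

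The 14q11.2 run had the highest scores. It covered 7.575 kb, from 24584877 to 24592452 on chromosome 14, and all 8 parental summits in it were strong parental-only sites. In order along the chromosome they scored 60.9, 50.4, 14.3, 44.3, 81.1, 52.6, 62.7 and 41.2. The third was low, and the other 7 scored above 40. The nearest knockout summit was 7901 kb away. The 16 parental summits in the 100 kb to either side had a median score of 5.13.

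The 20q11.21 run was the longest. It covered 61.57 kb, from 30249689 to 30311260, and held 9 strong parental-only sites among 49 parental summits. Their scores were 13.2, 19.6, 16.7, 26.3, 24.5, 22.3, 16.9, 13.1 and 22.4. In contrast to the 14q11.2 run, the strong sites here were interspersed with many weaker ones. This run also held a knockout summit at 30309739, with a score of 4.48 in the knockout list, which lay 1521 bp from the last site. A parental summit at 30309802 with a score of 19.6 lay beside that knockout summit and was a strong shared site.

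In 5q32 a run of 6 sites covered 38.8 kb, from 148513910 to 148552715. Its scores were 14.9, 16.2, 13.6, 17.5, 16.2 and 41.9, so that the last site stood apart from the other 5. A shorter run in 20q11.22 held 5 sites in 8.937 kb, from 33892653 to 33901590, which scored 16.9, 14.6, 13.9, 19.8 and 14.3. Neither run had a knockout summit in its span, and the nearest were 557.4 kb and 351.2 kb away.

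**Figure D2:**
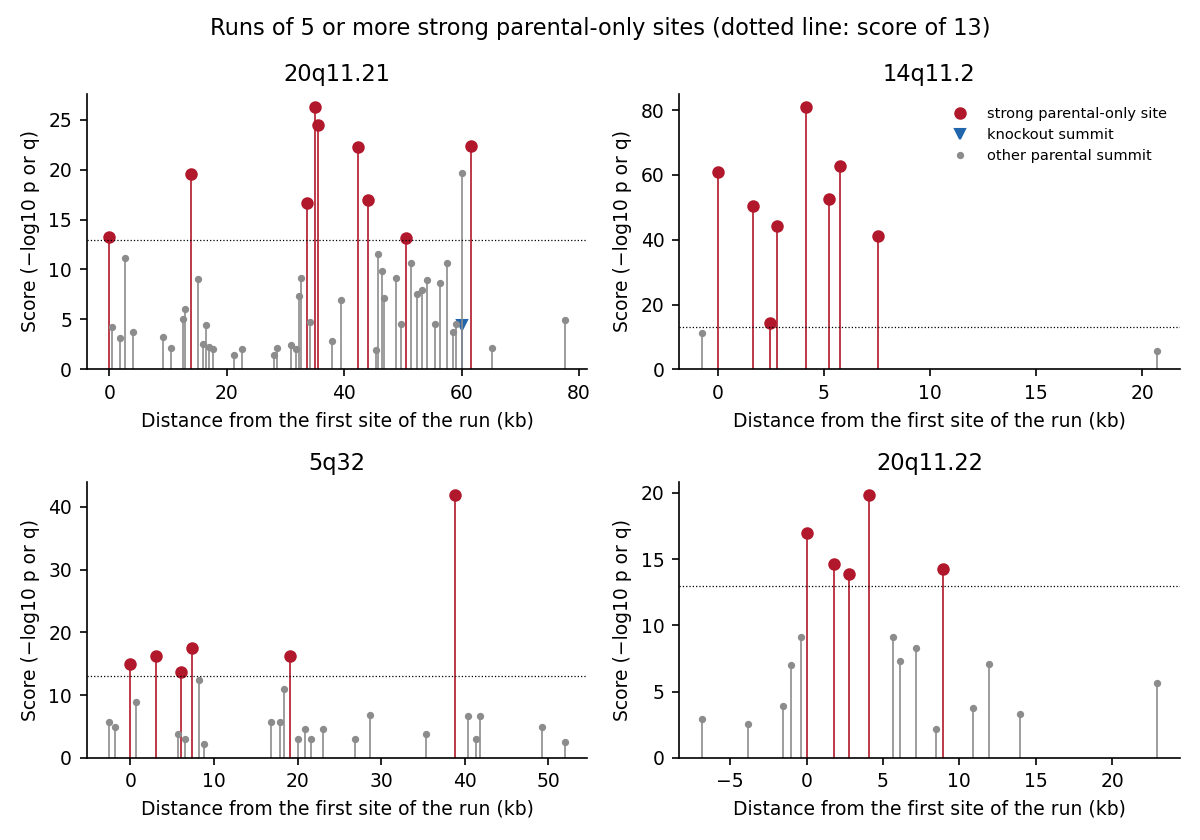
Scores (vertical axes, −log10 p or q) of parental summits along the 4 runs, by distance from the first site of the run (horizontal axes, kb). Red circles are strong parental-only sites, grey dots other parental summits and the blue triangle a knockout summit, whose score comes from its own list; the 14q11.2 panel has 8 red sites and the 20q11.21 panel has 9 among 49 parental summits.

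Weaker parental summits were common around the strong parental-only sites. Within 10 kb, 905 sites (86.85%, 84.65 to 88.85) had another parental summit, with a median of 3. In the strong shared sites this share was 79.37% (72.89 to 84.9), or 77.06% (70.0 to 83.15) without the 15q24.2 run. Over all parental summits it was 75.44%. Within 1 kb the share was 58.64% (55.58 to 61.65) for the strong parental-only sites and 41.16% for all parental summits. For the strong shared sites it was 49.21% (41.88 to 56.56). Without the 15q24.2 run it was 52.35% (44.57 to 60.06), an interval that includes 58.64%. Parental summits with scores of 10 up to 13 and no knockout summit within 1000 bp, 1595 in number, gave 58.81% within 1 kb, close to the sites above the minimum. Another strong parental-only site lay within 10 kb of 173 sites (16.6%, 14.39 to 19.0). Such a site lay within 10 kb of 16.05% of the 1595 summits, 7.94% of the strong shared sites and 10.13% of all parental summits. Another of their own kind lay within 10 kb of 18.93% of the 1595 summits and 20.63% of the strong shared sites, with the 15q24.2 run included. Summits near each other share their chromatin, so these intervals, which treat sites as independent, are too narrow. Within 10 kb, 938 sites (90.02%) were the highest parental summit, which in part follows from the score rule, and in the strong shared sites the share was 83.6%, or 91.18% (85.86 to 94.98) without the 15q24.2 run.

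**Figure D3:**
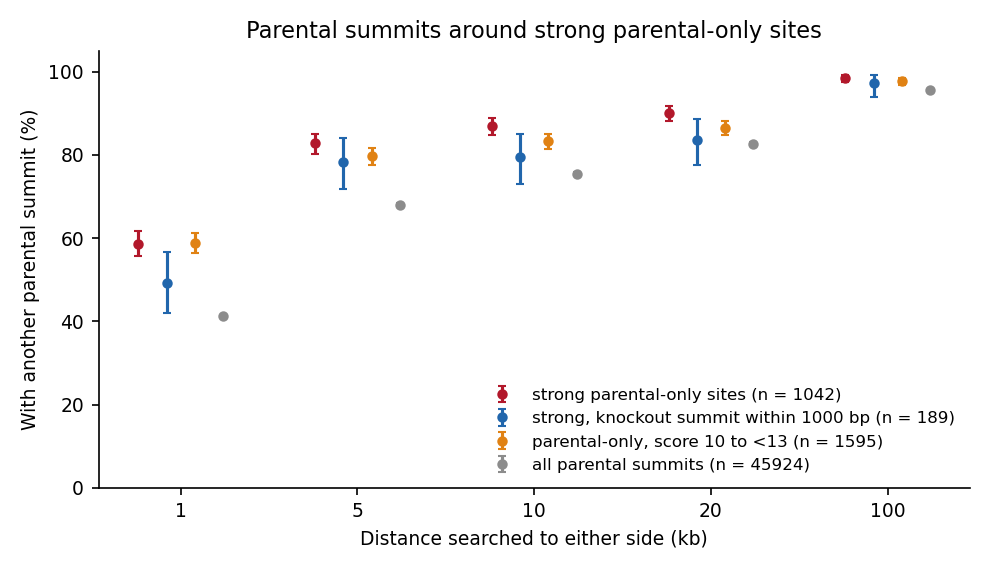
Share of summits with at least 1 other parental summit (vertical axis, %) within 1, 5, 10, 20 or 100 kb to either side (horizontal axis). Points are shares and error bars 95% exact binomial intervals for 4 sets; at 1 kb the strong parental-only sites are at 58.64% and all parental summits at 41.16%.

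Chromosome 20 held 79 of the 1042 sites (7.58%) and 4.10% of the parental summits. Chromosomes 5 and 3, both longer, held 78 and 77 sites, and with sites within 1000 bp merged the numbers were 74 on chromosome 20, 76 on chromosome 5 and 73 on chromosome 3. Of its parental summits 4.20% (3.34 to 5.21) were strong parental-only sites, against 2.27% (2.14 to 2.41) over the genome. Its density was 1.253 sites per Mb (0.992 to 1.562), and the median over chromosomes was 0.310 per Mb. Chromosome 20 also held 24 of the 189 strong shared sites and 41 of the 385 knockout summits. Leaving out the 14 sites in its 2 runs, the share was 3.48% (2.70 to 4.42).

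Chromosome 14 had the next highest share, 3.43% (2.56 to 4.48), with 51 sites. Without the 8 sites of the 14q11.2 run it was 2.90% (2.11 to 3.89), an interval that includes the genome value. Chromosome 19 had many sites per Mb (0.896) but a share of 1.77% of its parental summits, and chromosome 17 had 0.727 per Mb and 2.05%. Chromosome X had 5 sites, 0.0322 per Mb. The density of sites thus varied more between chromosomes than their share of parental summits, and chromosomes 14 and 20 were the ones whose intervals lay above the genome value.

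**Figure D4:**
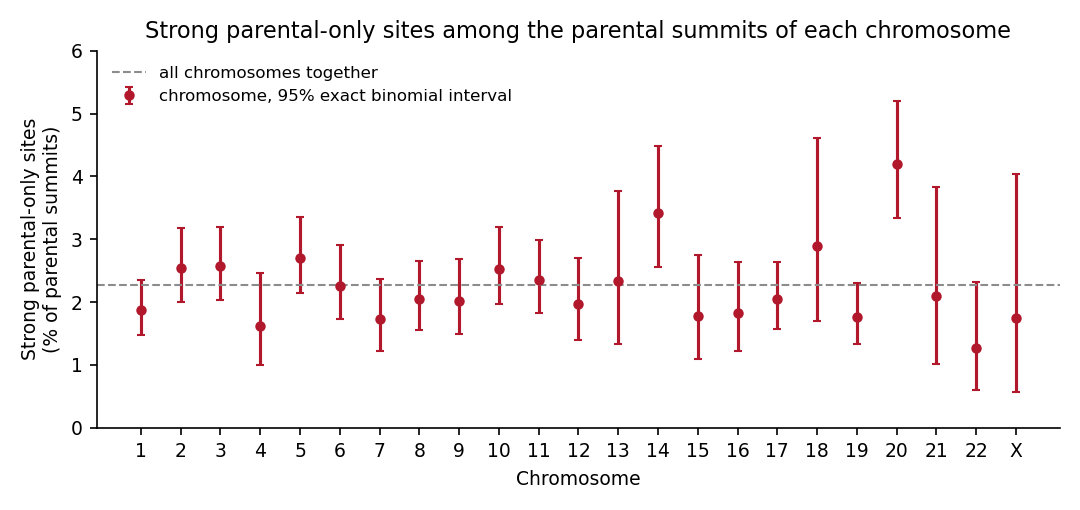
Strong parental-only sites as a share of the parental summits of each chromosome (vertical axis, %). Points are shares, error bars 95% exact binomial intervals and the dashed line the value over all chromosomes, 2.27%; chromosome 20 is at 4.20% and chromosome 14 at 3.43%.

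Sites were spread over 397 of 851 cytogenetic bands (46.65%), and 163 of those bands held exactly 1. The 10 bands with the most sites held 128 of them (12.28%). By number, 8q24.3 came first with 18 sites, 1.46% of its 1236 parental summits, and 17q25.3 next with 16, 2.31% of 693. On chromosome 20, 12 of the 16 bands with a site had a share above the genome value and 4 below it. There were 10 of 103 parental summits (9.71%, 4.76 to 17.13) in 20q11.22 and 15 of 217 (6.91%, 3.92 to 11.14) in 20q13.12, but 2 of 416 (0.481%, 0.0583 to 1.73) in 20q13.33. In 20p13 there were 10 sites of 143 parental summits and 0 knockout summits. In 2p11.2 there were 11 of 140 (7.86%, 3.99 to 13.62), and in 8q24.21 there were 15 of 242 (6.20%, 3.51 to 10.02). These bands are a few of the 397, and some of their sites lie close together, as do 5 of the 10 in 20q11.22. The band intervals treat sites as independent and are too narrow, and bands were not counted again without runs.

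By Giemsa stain, unstained bands, which are known to be gene rich, held 672 sites (64.49%, 61.5 to 67.4), against 63.85% of all parental summits and 42.43% of the bases. The share in strong shared sites was 53.97% (46.58 to 61.23), or 60.0% (52.22 to 67.42) without the 15q24.2 run. The lightest stained class held 12.48% of the strong parental-only sites (10.53 to 14.64) and 25.4% of the strong shared sites (19.36 to 32.22). The 19 sites of the 15q24.2 run lay in this class, and without them the share in strong shared sites was 17.06% (11.73 to 23.57). The darkest class held 4.32% of the strong parental-only sites and 16.42% of the bases. Within 5 Mb of a chromosome end lay 150 sites (14.4%, 12.32 to 16.68), against 13.76% of the strong shared sites (9.19 to 19.5), 18.87% of the weaker parental-only summits and 7.58% of the bases. Without the 15q24.2 run the strong shared share was 15.29% (10.24 to 21.6). Both sets of strong summits thus had similar shares there. The share of the weaker summits lay above the interval of the strong parental-only sites but within that of the strong shared sites.

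Genes could be assigned only in a sample of 410 genes, 329 of them protein-coding, whose hg19 transcripts ship with software packages. This is not known to be a random sample, and a gene outside it is not described here. Of the 329, 162 (49.2%) had a parental summit of any score at most 1 kb from a start site, and 8 (2.43%, 1.06 to 4.74) had a strong parental-only site there. These 8 genes were FKBP5, ZNF532, CTXN1, RPP38, ANO8, HSPA4L, SCRN1 and CTBP2. Of their 9 promoter sites, 8 lay downstream of the start and 1 upstream, at a median distance of 435 bp. Counted by site, 9 of 1042 (0.864%, 0.396 to 1.63) lay within 1 kb of a sampled start. The share was 1.06% (2 of 189, 0.128 to 3.77) in the strong shared sites. It was 0.564% in the weaker parental-only summits and 0.575% in all parental summits. These values all lie within the interval of the strong parental-only sites. Within 10 kb of the transcribed span, 14 genes had such a site. Of all 410 sampled genes, 5 (1.22%) had a knockout summit within 10 kb, and these 14 had 0, which the rule in part fixes.

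FKBP5, which encodes a co-chaperone of HSP90 that restrains the glucocorticoid receptor and is itself a well known glucocorticoid target, had the most. Of 42 parental summits in its span on chromosome 6 (35541362 to 35696360, minus strand) or within 10 kb of it, 5 were strong parental-only sites. The transcript sample gives 1 start for FKBP5, and all distances here are counted from it. Whether a site lay near any other start of the gene was not determined. One of the 5 sites lay 161 bp downstream of the start, in an intron, with a score of 18.2. A site 3156 bp upstream scored 14.3 and a site 40336 bp downstream scored 15.8. The highest pair lay deep in the gene, at 123498 bp (21.7) and 124654 bp (29.1) from the start, both in introns. The other 37 summits had a median score of 5.50 and none above 12.4. No knockout summit lay near them, so the score minimum itself placed these 37 below the 5 sites. Of the 42 summits, 15 lay within 10 kb of the start, 16 lay more than 110 kb downstream, around the distal pair, and 11 lay between, 1 of them a strong parental-only site. The nearest knockout summit was 299.7 kb from the start.

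**Figure D5:**
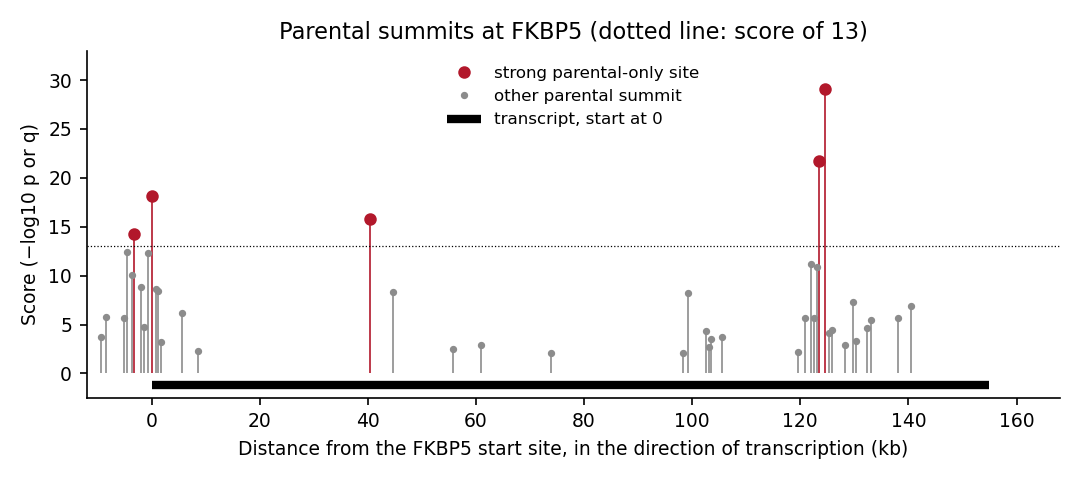
Scores (vertical axis, −log10 p or q) of the 42 parental summits in or near FKBP5, by distance from its start in the direction of transcription (horizontal axis, kb). Red circles are the 5 strong parental-only sites, grey dots the other 37 summits and the black bar the transcript; the highest site, 29.1, lies 124654 bp from the start.

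ZNF532, a zinc finger protein that binds ZMYND8, had 2 strong parental-only sites in its first kilobase, both in an intron. They lay 435 bp (score 16.2) and 908 bp (score 14.9) downstream of the start, at 56530591 and 56531064 on chromosome 18. The gene and its 10 kb flanks held 6 parental summits in all, and the nearest knockout summit was 34520 kb away. CTBP2, a transcriptional corepressor of the CtBP family, had 32 parental summits, 2 of which were strong parental-only sites. One was 771 bp upstream of its nearest start and the other in an intron, and both scored 13.6. The other 30 had a median score of 3.71 and none above 8.87. CTBP2 thus resembled FKBP5 in holding many summits. No knockout summit lay near any summit of either gene. The score minimum alone therefore made every other summit there weaker than the strong parental-only sites, and nothing is read from that contrast. Over the genome, 2.27% of parental summits were strong parental-only sites. Both genes were named because they had such a site, so their counts cannot be read against that share.

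HSPA4L, RPP38 and SCRN1 each had a single parental summit within 10 kb, and it was a strong parental-only site. HSPA4L, a chaperone of the HSP110 family, had it in an exon 42 bp from the start (13.6). RPP38, a protein subunit of RNase P and RNase MRP, had it in an intron 154 bp from the start (14.4). SCRN1, secernin, had it in an intron 352 bp from the start (13.6). These lone summits differ from FKBP5, where the promoter site had many neighbours. SLC25A31, a mitochondrial ADP/ATP carrier, is the neighbour of HSPA4L and has the same summit within 10 kb of its span.

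CTXN1, which encodes cortexin, had an exonic site 631 bp from its start (15.9) and another 9315 bp downstream (13.6). ANO8, an anoctamin family member, had an intronic site 472 bp from its start (13.9) among 14 parental summits, with the nearest knockout summit 24.64 kb from that site. SEPTIN10, a septin, had a site 1203 bp upstream of its start (16.2). Its RefSeq neighbour on that side is SOWAHC, and whether the site lay in or nearer to SOWAHC was not determined. A site with a score of 18.9 in 1p36.33 lay 8228 bp upstream of CCNL2, a cyclin of the splicing machinery, and also within 10 kb of MRPL20-AS1. In RefSeq the next protein-coding gene after both is MRPL20, and whether the site lay nearer to its start was not determined. APCDD1L had a site 9439 bp upstream (13.1). TFAP2A-AS1, a noncoding RNA beside TFAP2A, which encodes the transcription factor AP-2 alpha, had the 6p24.3 site of score 49.2 at 7541 bp upstream of its start. Of the sites near sampled genes this had the highest score, but it lay outside the promoter windows of the sampled genes. Whether it lay within TFAP2A itself was not determined. Without strand in the summits, a site between neighbouring genes could not be assigned to either.

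In 10 gene lists that fit this line and protein, with 121 genes in all, only 6 genes were in the transcript sample. The lists cover cholesterol and oxysterol metabolism, sterol uptake, LXR targets, AP-1 and TEAD factors, hypoxia, ZMYND8 partners, breast stem cell genes and the NRF2 pathway. The 6 were APOE, MTA3, ZNF532, ALDH1A3, CUL3 and KEAP1, and ZNF532 was the one with a strong parental-only site within 10 kb. Of 19 markers of other cell types, PF4 was in the sample and had 0 such sites. The other 115 genes of the lists were not analysed here. They include ZMYND8 itself, so whether any of the sites lay in the knocked-out gene was not determined.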

How the data were processed

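ZMYND8 ChIP-seq summit lists of 1 knockout and 1 parental library were used, grouped by genotype in the labels. The deposited score of each summit is a −log10 p or q value made by the authors; no source used here says which of these it is, or gives the control, threshold, duplicate handling or depth. Per the submitters' processing notes, the build was hg19 and the tools were MACS2 2.0.10, Bowtie2 2.2.3, FastQC 0.11.2 and Picard 1.127, with no roles or settings. Scores depend on depth and control, so they were used within a list only, and unequal depth alone can make lists unequal in length. Positions are 1-based.

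The sites, the 10 gene lists and the comparisons were chosen with earlier results of these data known. Named sites were the 20 highest, 1 per group within 20 kb, the highest of each chromosome and those at the limits of the rule. Named genes were all sampled genes with a site within 10 kb. Runs were 5 or more sites with gaps of at most 20 kb. Shares carry exact Clopper-Pearson intervals and counts exact Poisson intervals, at 95% and for counting error only. The counting was tested on simulated lists.

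Chromosome lengths came from GenomeInfoDb 1.38.1, bands from circlize 0.4.16, and transcripts from pyranges 0.1.4 and GenomicFeatures 1.54.1. The pyranges set states no build, but all 678 transcripts lie within hg19 lengths. Of the 678, 668 matched a RefSeq table by identifier, and 614 of 410 genes were used. Promoter sequences are from RefSeq GRCh38.p14, which held 7 of the 8 genes with a promoter site. Planned motif searches at the sites and a full annotation of nearest genes need an hg19 genome and were not run. Computation used Python 3.11.15, scipy 1.17.1, numpy 2.4.6, matplotlib 3.10.9 and pandas 2.3.3.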

Additional observations from a re-analysis of the deposited data

How the results depend on the processing

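Of 46 alternatives, 28 held their value and 18 moved it. A share was held if it stayed within the counting interval of the reported share. A count was held if it stayed within a fixed factor of the reported count. With a score minimum of 10 there were 2637 sites, 91.56% of strong parental summits were parental-only, 30.11% of sites had another site within 10 kb and 5.84% were on chromosome 20. With a minimum of 20 there were 198 sites, and these shares were 66.67% and 11.11%; 88.89% had another parental summit within 10 kb, 70.71% lay in unstained bands, and 0.0% of the 329 protein-coding genes had a site at the promoter (upper limit 1.11%). A knockout distance of 200 bp gave 88.22% of strong summits as parental-only. Searching 5 kb gave 13.63% with another site and 82.73% with another parental summit, and 20 kb gave 20.15% and 90.02%. Windows and minima change these by construction. Without the 15q24.2 run, 53.85% of summits with scores of 50 or more were parental-only, and of the strong shared sites 17.06% lay in the lightest stained class and 91.18% were the highest within 10 kb. Alternatives without the runs, for the strong shared sites without 15q24.2 and with the pyranges set alone were added after seeing the data. Motif searches at the sites and the nearest-gene alternative were not run. No paired analysis was possible because there is a single library per genotype. For the same reason, differences between the genotypes and differences between the libraries cannot be told apart.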
